A study of Mus musculus with 2 samples.

Results

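The small leucine-rich proteoglycans are a family of secreted matrix proteins, and 8 of their genes were followed here through the cells of CT26 tumors. They are Ogn (osteoglycin), Aspn (asporin), Omd (osteomodulin), Dcn (decorin), Lum (lumican), Bgn (biglycan), Fmod (fibromodulin) and Prelp (prolargin), and they were read by symbol among the 33696 genes listed, of which 25730 had at least 1 transcript. The 8 genes were selected on measured UMI levels of these libraries, after Ogn and Aspn had been seen to lead a large group of non-immune cells, so their levels across cell classes are a description and carry no test. Another 9 genes of the family were listed and are given only where they add to the account. CT26, a colon carcinoma line of the mouse, was grown under the skin of young adult male BALB/c mice. A library of single cells came from untreated tumors (UT), which received no gel, and another from tumors of mice given BUP-Gel, a hydrogel that carried the local anesthetic bupivacaine (BUP-treated). Each library pooled 3 tumors, so each condition has 1 library, there is no replicate, and no difference between the conditions was tested. Live CD45+ (immune) and CD45- cells were sorted and combined before loading, which bears on the share of non-immune cells. The mix was 4 parts to 1 part per the labels but 3 parts to 1 part per the methods of the paper. Among the cells kept, immune classes were 81.0% of UT but 59.7% of BUP-treated cells. The distance of these shares from either stated mix was not tested.

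Small leucine-rich proteoglycans are built from leucine-rich repeats, bind collagen fibrils in the matrix and carry chondroitin, dermatan or keratan sulfate chains or none. Decorin and biglycan also bind TGF-beta and other growth factors, and soluble biglycan is a ligand of Toll-like receptors. In most tissues fibroblasts and related mesenchymal cells are the known source of decorin and lumican, whereas osteoglycin, asporin and osteomodulin are best known from bone, cartilage and tendon.

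Aspn, Omd and Ogn lie side by side on the plus strand of mouse chromosome 13 (genome build GRCm39), with Aspn at chr13:49697609-49721057 with 8 exons, Omd at chr13:49735938-49746298 with 3 exons and Ogn at chr13:49761349-49780412 with 7 exons. The gaps between them are 14880 and 15050 bases. Cenpp, a centromere protein gene, overlaps all of them on the opposite strand. Dcn, at chr10:97315275-97358155 with 8 exons, and Lum, at chr10:97400990-97408577 with 3 exons, are neighbors on chromosome 10 with a gap of 42834 bases. Fmod (chr1:133964992-133976015, plus strand) and Prelp (chr1:133837335-133857971, minus strand) share a region of chromosome 1, and Bgn is at chrX:72527208-72539541 on the plus strand. The 200 bases before the start of the main GENCODE vM39 transcript are shown for the neighbors that differed in level, namely the trio on chromosome 13 and the pair on chromosome 10, and for Bgn. All are read 5′ to 3′ on the plus strand, from chr13:49761149-49761348 for Ogn, chr13:49697719-49697918 for Aspn, chr13:49735738-49735937 for Omd, chr10:97315075-97315274 for Dcn, chr10:97400790-97400989 for Lum and chrX:72527008-72527207 for Bgn, and capitals mark TATAAA or CCGCCC on either strand.
Ogn: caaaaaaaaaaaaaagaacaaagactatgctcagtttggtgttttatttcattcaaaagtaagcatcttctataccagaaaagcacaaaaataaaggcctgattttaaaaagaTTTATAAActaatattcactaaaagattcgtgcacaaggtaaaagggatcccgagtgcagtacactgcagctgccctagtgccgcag
Aspn: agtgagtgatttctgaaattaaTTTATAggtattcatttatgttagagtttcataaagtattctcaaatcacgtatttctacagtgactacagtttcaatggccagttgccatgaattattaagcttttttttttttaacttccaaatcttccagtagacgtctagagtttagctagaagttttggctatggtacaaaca
Omd: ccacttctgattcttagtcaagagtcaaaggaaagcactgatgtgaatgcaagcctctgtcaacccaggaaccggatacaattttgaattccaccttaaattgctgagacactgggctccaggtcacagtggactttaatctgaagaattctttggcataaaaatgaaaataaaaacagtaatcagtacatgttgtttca
Dcn: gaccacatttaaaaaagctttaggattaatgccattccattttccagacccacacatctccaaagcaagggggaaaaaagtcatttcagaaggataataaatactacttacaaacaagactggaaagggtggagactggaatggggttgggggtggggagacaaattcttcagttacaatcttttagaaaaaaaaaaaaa
Lum: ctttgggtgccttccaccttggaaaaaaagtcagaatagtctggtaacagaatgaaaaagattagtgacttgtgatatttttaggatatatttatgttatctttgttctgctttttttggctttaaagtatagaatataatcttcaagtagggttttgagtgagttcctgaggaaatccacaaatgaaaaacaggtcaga
Bgn: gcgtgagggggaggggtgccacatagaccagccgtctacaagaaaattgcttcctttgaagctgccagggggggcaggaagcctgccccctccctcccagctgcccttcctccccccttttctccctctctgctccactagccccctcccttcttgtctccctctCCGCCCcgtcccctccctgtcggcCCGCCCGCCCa
The 5 sequences from chromosomes 13 and 10 were poor in G and C, at 35.0% for Ogn, 31.0% for Aspn, 39.0% for Omd, 37.5% for Dcn and 33.0% for Lum, against a median of 54.5% over 21757 protein-coding genes. The Bgn sequence held 66.5% and the only 3 matches to CCGCCC (an Sp1-type motif), at 35, 11 and 7 bases before the start with the last pair overlapping, a motif that 34.8% of all the windows contain. TATAAA, found in 9.57% of the windows, occurred in Ogn at 87 and 85 bases before the start, as overlapping matches on opposite strands, and in Aspn at 178 bases. The E-box CANNTG (56.1% of windows) was found once each in Ogn, Aspn, Lum, Bgn and Fmod and is left in lower case, and neither strand had TGANTCA (AP-1-type, 4.94%), GTCTAGAC (Smad-type, 0.175%) or CCAAT (32.3%) in any of the 8 sequences. These matches describe letters and show no binding.

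The UT library held 83228442 unique molecular identifiers (UMIs, each counting 1 captured transcript whatever its length) in 7556 cell barcodes and the BUP-treated library 89918925 in 7221. A barcode was kept when it had over 100 UMIs, with less than 20% of them mitochondrial, so that 7163 UT and 6776 BUP-treated cells remained, with medians of 8430 and 10420 UMIs. The libraries shared 76 barcodes. Cells were clustered without any gene of the family, and non-immune cells were clustered again. This gave 7 tumor cell states (1073 UT and 2371 BUP-treated cells), each named after leading genes outside the family, 1 fibroblast-like cluster (15 and 63 cells) and 18 immune classes (5803 and 4046 cells). Left out of these groups were 240 erythrocyte-like cells and a pair of clusters, of 242 and 86 cells, that mixed tumor with macrophage or lymphocyte transcripts. In these clusters 81.0% and 91.9% of cells had a doublet score in the top 6% of all cells of both libraries. The states were called tumor for their near absence of Y-linked transcripts, which cells of the male host carry. Ddx3y, Eif2s3y, Kdm5d and Uty together stood at 1.55 and 0.568 counts per 1000000 UMIs of the class (CPM) in UT and BUP-treated tumor states, at 134 and 122 CPM in the fibroblast-like cells and at 150 and 170 CPM in immune cells. Of 9 epithelial markers, Krt20 stood at 110 CPM and Krt18 at 11.6 CPM in the tumor states, Krt8 at 3.54 CPM, and Krt19, Cldn4 and Cldn7 at 0. Values below are CPM of summed UMIs, and every interval is an exact 95% interval that covers counting error only, not differences between tumors or preparations. Intervals of levels and ratios also leave out the uneven spread of UMIs over cells.

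Most transcripts of Ogn, Aspn, Omd and Prelp came from tumor cells, for Ogn 4832 of 5562 UMIs in UT and 10869 of 11704 in BUP-treated cells, and among the tumor states of UT their levels were highest in the same one. This state, led outside the family by Apod (apolipoprotein D, a lipid carrier) and Agt (angiotensinogen), held 315 UT and 1051 BUP-treated cells. Ogn, the mimecan gene, stood there at 692 CPM in UT (667 to 717) and 502 CPM in BUP-treated cells (491 to 514). Its lowest level was in the mitotic Ube2c-Cenpf state, at 10.2 CPM (7.77 to 13.1) and 19.0 CPM (15.7 to 22.7), which makes the Apod-Agt level 68.0-fold higher in UT and 26.5-fold higher in BUP-treated cells. The order between these ends was the same in both libraries for the upper states, with Gbp2-Vcam1 at 443 and 393 CPM, Lcn2-Saa3 at 257 and 212 CPM and Mecom-Magi1 at 190 and 151 CPM. The intervals of these neighbors did not overlap in either library. The Nppb-Esm1 state (38.6 and 50 CPM) and the Mcm state of DNA-replicating cells (39.7 and 37.6 CPM) had overlapping intervals in UT and came in the opposite order in BUP-treated cells.

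**Figure D1:**
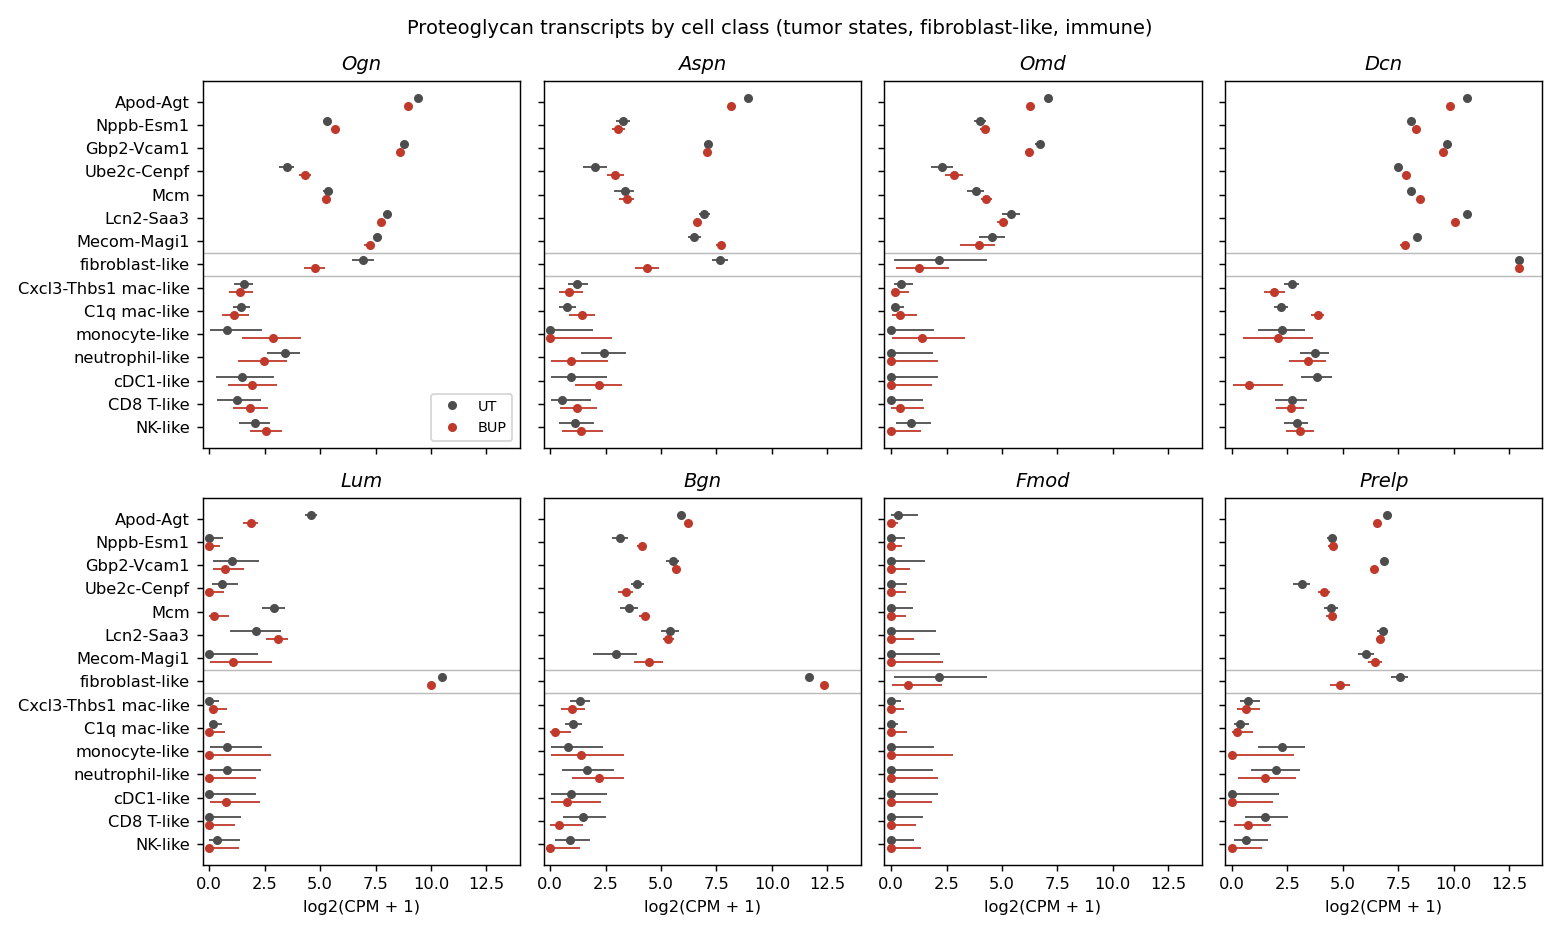
Level of each of the 8 genes on a log2(CPM + 1) axis in the 7 tumor states, the fibroblast-like cluster and 7 of the 18 immune classes, with gray points for UT, red points for BUP-treated cells and bars for the exact 95% counting interval. Ogn, Aspn and Omd are highest in tumor states, Dcn, Lum and Bgn are highest in fibroblast-like cells, Prelp is highest in fibroblast-like cells in UT (189 CPM) and in a tumor state in BUP-treated cells (101 CPM), and Fmod is at or near 0 throughout.

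Aspn, a decorin relative that lacks a glycosaminoglycan chain, had a steeper gradient among the states than Ogn. It stood at 479 CPM in UT Apod-Agt cells and 281 CPM in BUP-treated ones, against 8.81 and 7.45 CPM in the Nppb-Esm1 state and 3.05 and 6.70 CPM in the Ube2c-Cenpf state. The Apod-Agt level was 54.3-fold and 37.8-fold that of the Nppb-Esm1 state, compared with 17.9-fold and 10.0-fold for Ogn. In UT the next states in order, Gbp2-Vcam1 (138 CPM, 122 to 155) and Lcn2-Saa3 (123 CPM, 104 to 145), could not be separated. In BUP-treated cells the second place was taken by Mecom-Magi1, at 206 CPM (178 to 238), with 55.4% of these UMIs in 5 of 109 cells. Omd, another gene of the chromosome 13 trio and a keratan sulfate proteoglycan of bone, followed a similar order at a lower level. It had 132 and 75.4 CPM in Apod-Agt cells and 103 and 72.6 CPM in Gbp2-Vcam1 cells, with overlapping intervals in the BUP-treated library (71.1 to 80.0 and 65.0 to 80.9). Its level in the Ube2c-Cenpf state was 3.90 and 6.22 CPM. Prelp, which links basement membranes to collagen and maps to another chromosome, had 126 and 90.8 CPM in Apod-Agt cells and 7.80 and 16.9 CPM in Ube2c-Cenpf cells. Unlike Ogn, whose Apod-Agt level was 2.70-fold and 2.37-fold that of Lcn2-Saa3 cells, Prelp was at 111 and 101 CPM in Lcn2-Saa3 cells, and its Apod-Agt level was 1.14-fold (0.942 to 1.39) and 0.903-fold (0.804 to 1.02) that. Prelp UMIs per Ogn UMI in the Apod-Agt state came to 0.183 in UT (0.167 to 0.200) and 0.181 in BUP-treated cells (0.170 to 0.192).

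Dcn was detected in every tumor state and had the widest base. By summed UMIs it was at 1542 CPM in UT Apod-Agt cells (1505 to 1580) and 1535 CPM in UT Lcn2-Saa3 cells (1466 to 1606). The latter is an acute-phase state, and these sums could not be put in order in UT. In BUP-treated cells the Lcn2-Saa3 sum came first, at 1063 CPM (1029 to 1097) against 922 CPM (907 to 938). The median cell was higher in the Apod-Agt state in both libraries. It had 9.97 against 6.29 Dcn UMIs per 10000 in UT and 4.75 against 4.59 in BUP-treated cells. Of the Lcn2-Saa3 Dcn UMIs, 5 cells held 34.9% in UT and 21.8% in the BUP-treated library. The lowest level was 178 CPM in the UT Ube2c-Cenpf state and 219 CPM in the BUP-treated Mecom-Magi1 state. The Apod-Agt level was 5.80-fold and 2.98-fold that of the Nppb-Esm1 state, a shallower gradient than that of Ogn or Aspn. Bgn, a close relative of Dcn, was low in the tumor, at 59.2 and 73.5 CPM in the Apod-Agt state and 7.95 and 16.4 CPM in the Nppb-Esm1 state. Fmod, a collagen-binding keratan sulfate proteoglycan, had 1 UMI in all tumor states of the UT library and 0 in the BUP-treated library, which allows a level of up to 0.0656 CPM (3 counts).

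Fibroblast-like cells had a different set of the family. Dcn stood at 7958 CPM in UT (7638 to 8289) and 7783 CPM in BUP-treated fibroblast-like cells (7638 to 7930), 13.9-fold and 13-fold the level in all tumor states together. Bgn was at 3255 and 5199 CPM, which is 141-fold and 132-fold the tumor level. Lum, which keeps collagen fibrils thin and evenly spaced in the cornea and skin, was at 1430 and 1013 CPM, and its excess over tumor cells was 269-fold and 653-fold. Every one of the 78 fibroblast-like cells had a Dcn and a Bgn UMI. For Ogn the order was turned, with 123 CPM in UT and 26.3 in BUP-treated fibroblast-like cells, or 0.645-fold and 0.111-fold the tumor level. Aspn stood at 202 and 19.9 CPM, Prelp at 189 and 28.4 CPM, and Omd and Fmod had at most 2 UMIs in a library. The fibroblast name rested on markers fixed as a list, which summed to 41178 and 21709 CPM in these cells and to 1224 and 1098 CPM in the Apod-Agt state. Several of these markers were almost absent from tumor states, with Postn at 0.0845 CPM against 1074 in fibroblast-like cells, Acta2 at 0.268 against 318 and Thy1 at 1.20 against 1768, while Col1a2 was at 539 against 4627 CPM.

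Ratios between family members within a class put the same contrast on a scale that does not depend on total RNA. There were 0.449 (0.430 to 0.469) and 0.545 (0.529 to 0.561) Ogn UMIs per Dcn UMI in the UT and BUP-treated Apod-Agt state, 0.145 and 0.162 in the Nppb-Esm1 state and 0.0573 and 0.0839 in the Ube2c-Cenpf state. In fibroblast-like cells the ratio was 0.0155 (0.0108 to 0.0215) and 0.00338 (0.00238 to 0.00466). The tumor states thus differed from each other as well as from fibroblast-like cells, beyond counting error. Lum per Dcn went the other way, at 0.180 and 0.130 in fibroblast-like cells and 0.0150 and 0.00289 in the Apod-Agt state. Bgn per Dcn was 0.409 and 0.668 in fibroblast-like cells and 0.0404 and 0.0653 in all tumor states. In the Nppb-Esm1 state there was no Lum UMI in 240 UT or 377 BUP-treated cells beside 1873 and 2907 Dcn UMIs.

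**Figure D2:**
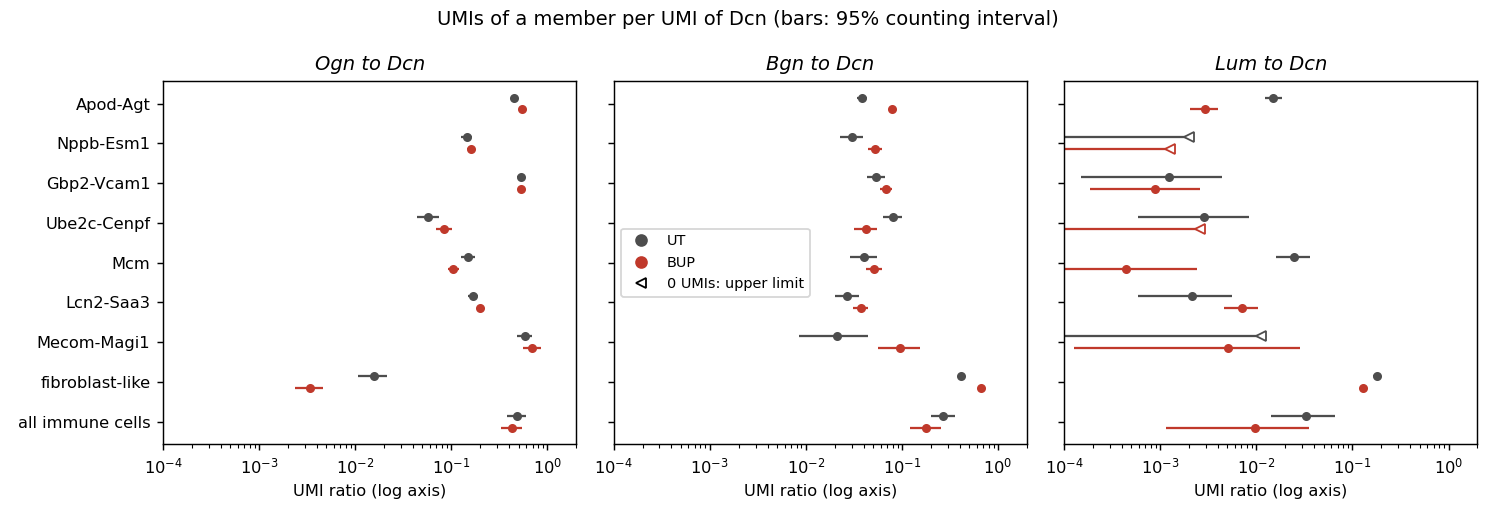
UMIs of Ogn, Bgn and Lum per UMI of Dcn on a log axis in each tumor state, in fibroblast-like cells and in all immune cells, with gray points for UT, red points for BUP-treated cells, bars for the exact 95% counting interval and open triangles for the upper bound where no UMI was counted. Fibroblast-like cells have the lowest Ogn per Dcn, 0.0155 and 0.00338, and the highest Bgn per Dcn and Lum per Dcn.

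Within the Apod-Agt state, 6 of the 8 genes were lower in the BUP-treated library than in the UT library, and Bgn was higher. Ogn stood at 692 CPM in UT and 502 in BUP-treated cells, a log2 ratio of -0.46 (-0.52 to -0.40). Aspn stood at 479 and 281 CPM (log2 ratio -0.77, -0.84 to -0.69). For Omd the values were 132 and 75.4 CPM (-0.81, -0.96 to -0.66). By summed UMIs the chromosome 13 trio was thus lower by unequal amounts, with the Ogn interval apart from those of Aspn and Omd. In cells thinned to 2000 UMIs, the intervals of Ogn (-0.344, -0.511 to -0.175) and Aspn (-0.651, -0.851 to -0.448) overlapped. That of Omd (-0.917, -1.31 to -0.519) stayed apart from that of Ogn. The mean of log-normalized values, on another scale, gave -0.256 for Ogn, -0.306 for Aspn and -0.225 for Omd. Dcn, at 1542 and 922 CPM, had a log2 ratio of -0.74 (-0.79 to -0.70), and Prelp, at 126 and 90.8 CPM, one of -0.48 (-0.62 to -0.33). Bgn stood at 59.2 CPM in UT and 73.5 in BUP-treated cells (0.31, 0.11 to 0.51), but it was at -0.01 when cells were thinned to 2000 UMIs each. Lum differed by more than 2-fold, from 23.2 to 2.66 CPM (-3.12, -3.70 to -2.58). It was the only one of the 7 genes with at least 20 UMIs in this state to do so, against 2.96% of the 12086 genes with that many UMIs, and Fmod had 1 UMI. The median log2 ratio was -0.74 over the 7 genes and -0.07 over all genes of the state. Median depth was alike in this state, 13400 UMIs per UT and 13191 per BUP-treated cell. The summed macrophage markers were at 68.9 and 35.5 CPM there, and their part in these differences was not tested.

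The Lum difference came from few cells. Of the 100 Lum UMIs of the UT Apod-Agt state, 93.0% were in 5 of its 315 cells, which had 37, 30, 12, 8 and 6 UMIs, and in the BUP-treated library the 5 highest of 1051 cells held 71.8% of 39 UMIs. None of the 5 UT cells had a Y-linked UMI, and their Col1a1 ranged from 0 to 6 UMIs, whereas Dcn ranged from 31 to 184 UMIs. Cells of this kind also occurred in other states, with 23 of 25 Lum UMIs of the UT Mcm state in 1 cell and 25 of 27 Lum UMIs of the BUP-treated Lcn2-Saa3 state in another. Lum was thus present in single tumor cells at a level far from that of their state in both libraries. Ogn was spread more evenly, with 14.5% and 4.60% of the Apod-Agt UMIs in the 5 highest cells.

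**Figure D3:**
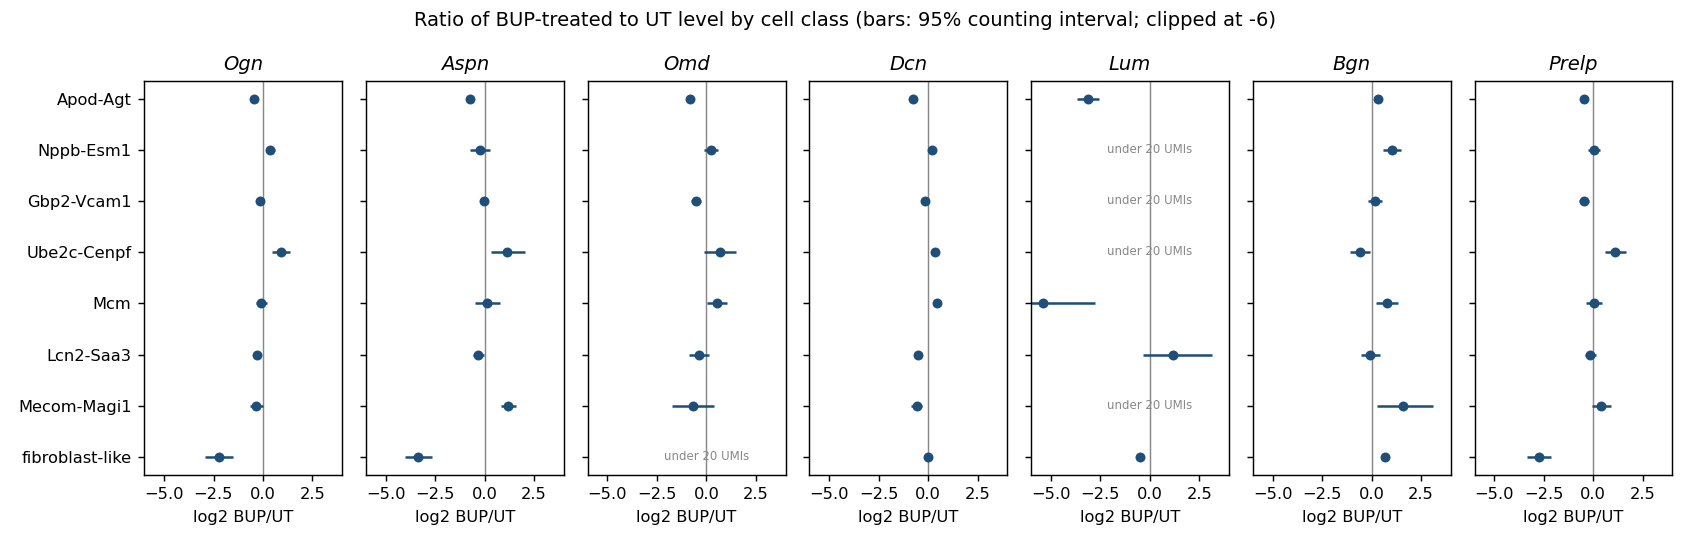
Log2 ratio of the BUP-treated to the UT level of 7 genes in the tumor states and the fibroblast-like cluster, with bars for the exact 95% counting interval (cut off at -6 for Lum in the Mcm state) and no point where both libraries together held under 20 UMIs. In the Apod-Agt state every gene but Bgn lies below 0, whereas in the Ube2c-Cenpf state Ogn, Aspn, Dcn and Prelp lie above 0. In the latter state 5 of 185 BUP-treated cells held 76.2% of the Aspn UMIs.

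In other tumor states the same genes went in other directions. In the Nppb-Esm1 state, led by genes of the natriuretic peptide and of endocan, Ogn was higher in the BUP-treated library, at 50 against 38.6 CPM (log2 ratio 0.37, 0.15 to 0.59). Summed Dcn was higher too, at 309 against 266 CPM (0.22, 0.13 to 0.30). Its share of cells was lower in the BUP-treated library, 59.4% against 65.8%, as was its median, 0.681 against 0.906 UMIs per 10000. The mean of log-normalized values gave -0.021 for Dcn. Bgn was at 16.4 against 7.95 CPM (1.04, 0.59 to 1.51), the only one of 6 genes with at least 20 UMIs past 2-fold, beside 2.74% of 11550 genes. Aspn, Omd and Prelp had intervals that included 0, and Lum and Fmod had no UMI. In the Ube2c-Cenpf state, Ogn was at 10.2 and 19.0 CPM (0.90, 0.44 to 1.37), Aspn at 3.05 and 6.70 CPM (1.13, 0.31 to 2.02) and Prelp at 7.80 and 16.9 CPM (1.11, 0.60 to 1.65). Bgn was lower there, at 14.2 and 9.57 CPM (-0.58, -1.08 to -0.08). These 4 genes had 18 to 119 UMIs in a library in this state, the interval of Omd included 0, and Bgn was at 0.019 without the 5 highest cells of each library. The higher Aspn sum there came from few cells, as 5 of 185 BUP-treated cells held 76.2% of its 42 UMIs. The highest of them had 17 Aspn UMIs, against 2 in the highest UT cell. Aspn was found in a lower share of these cells in the BUP-treated library, 7.57% against 9.33%. Dcn had 1048 and 1418 UMIs there, at 178 and 226 CPM (0.35, 0.23 to 0.46), but was at -0.21 (-0.71 to 0.29) when cells were thinned to 2000 UMIs.

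In the Gbp2-Vcam1 and Lcn2-Saa3 states the ratios whose interval was clear of 0 were negative for the genes named here, but several changed sign in another setting. In Gbp2-Vcam1 cells, a state led by interferon-inducible genes, Ogn had a log2 ratio of -0.17 (-0.29 to -0.05), Dcn one of -0.18 (-0.26 to -0.09), Omd -0.51 (-0.77 to -0.25) and Prelp -0.48 (-0.72 to -0.23), while the intervals of Aspn and Bgn included 0. When cells were thinned to 2000 UMIs, Ogn was at 0.17 (-0.22 to 0.58) and Omd at 0.018, and Dcn was at 0.028 (-0.072 to 0.13) when clustered on 30 principal components. In Lcn2-Saa3 cells, Dcn was at 1535 CPM in UT and 1063 in BUP-treated cells (-0.53, -0.61 to -0.45), with Ogn at -0.28 (-0.47 to -0.08) and Aspn at -0.32 (-0.60 to -0.04), the last of which was at 0.33 (-0.051 to 0.72) without the 5 highest cells of each library. Mecom-Magi1 cells are led by long genes, and their median depth was 11699 UMIs in UT and 7000 in BUP-treated cells. They had Aspn at 89.9 and 206 CPM (1.20, 0.83 to 1.58) but Dcn at 327 and 219 CPM (-0.58, -0.84 to -0.32). Aspn was found in a like share of these cells, 28.6% in UT and 28.4% in the BUP-treated library. In each library 5 cells held most of its UMIs, 57.1% and 55.4%. In the Mcm state Dcn was at 267 and 358 CPM (0.43, 0.32 to 0.53) and Omd at 13.2 and 18.7 CPM (0.51, 0.02 to 1.02). Counting each state with at least 20 UMIs and an interval clear of 0, Ogn was higher in the BUP-treated library in 2 states and lower in 4, Dcn higher in 3 and lower in 4, and Bgn higher in 4 and lower in 1. These differences between states were not tested.

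Levels pooled over all tumor states did not always differ between the libraries in the direction seen within the main state. The mix of tumor states differed as well. Apod-Agt cells were 29.4% of UT (26.6 to 32.2) and 44.3% of BUP-treated tumor cells (42.3 to 46.4), Nppb-Esm1 cells 22.4% and 15.9%, and Ube2c-Cenpf cells 14% and 7.80%. Summed over all tumor states, Ogn was at 192 CPM in UT and 237 in BUP-treated cells, a log2 ratio of 0.31 (0.26 to 0.36). With the BUP-treated states weighted by their share of UMIs in UT, its level was 157 CPM and the ratio -0.29. Dcn went from 571 to 601 CPM (0.07, 0.04 to 0.10) when pooled and to 468 CPM (-0.29) at the UT mix. Aspn, at 107 and 119 CPM (0.16, 0.09 to 0.23), and Prelp, at 49.5 and 56.8 CPM (0.20, 0.10 to 0.30), also changed sign, with -0.48 and -0.18 at the UT mix. Bgn kept its sign, at 0.77 pooled and 0.32 at the UT mix, and so did Lum, at -1.78 and -2.51, while Omd went from 0.02 (-0.09 to 0.13) to -0.44. The pooled sign also depended on how cells were weighted. With every cell thinned to 2000 UMIs, so that each cell counted alike, the pooled ratio was -0.28 (-0.36 to -0.20) for Dcn, -0.13 (-0.31 to 0.046) for Aspn, -0.12 (-0.39 to 0.16) for Prelp and 0.093 (-0.045 to 0.23) for Ogn. The sort and 1 pooled library per condition limit what those shares say about the tumors.

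**Figure D4:**
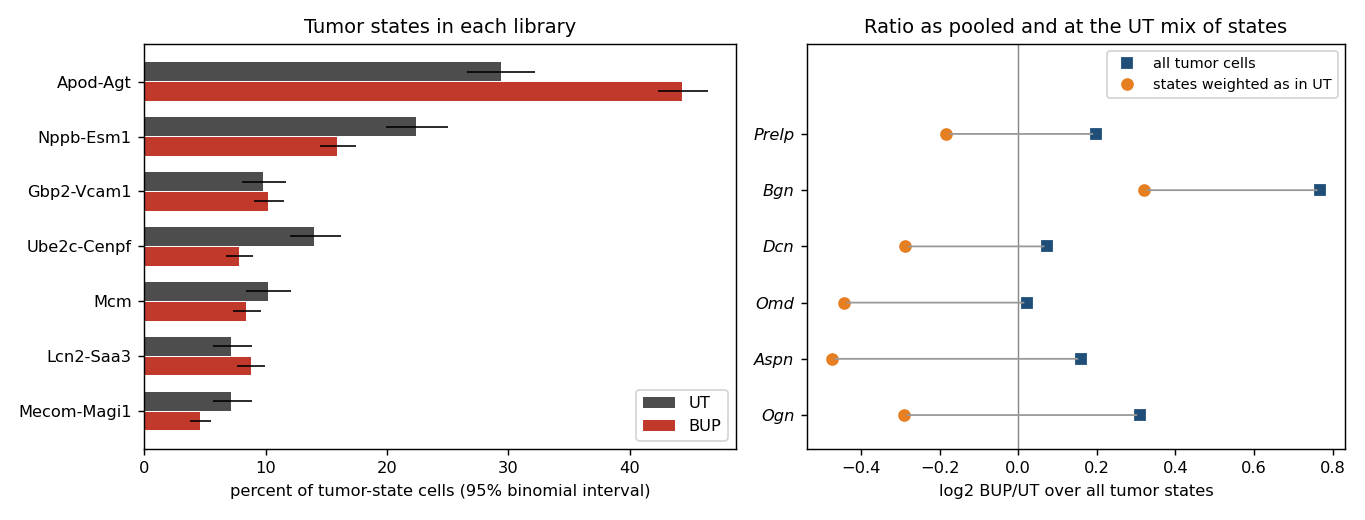
Left, percent of tumor cells in each of the 7 states for UT (gray) and BUP-treated cells (red), with exact 95% binomial intervals. Right, log2 ratio of the BUP-treated to the UT level over all tumor states for 6 genes, as pooled (squares) and with the BUP-treated states weighted as in UT (circles), where all but Bgn move from above 0 to below 0.

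Among fibroblast-like cells, Ogn, Aspn and Prelp were lower in the BUP-treated library and Bgn was higher, from 15 UT and 63 BUP-treated cells. Ogn was at 123 and 26.3 CPM (log2 ratio -2.23, -2.93 to -1.53), Aspn at 202 and 19.9 CPM (-3.35, -4.05 to -2.67) and Prelp at 189 and 28.4 CPM (-2.73, -3.35 to -2.12). They were 3 of 6 genes with at least 20 UMIs that were past 2-fold, where 18.3% of 8229 genes were. The Ogn UMIs came from 4 of 15 UT cells, with 15, 9, 9 and 3 UMIs, and 6 of 63 BUP-treated cells, with 15, 15, 3, 2, 1 and 1. For Aspn, 36 of 59 UT UMIs were in 1 cell, and without the highest cell of each library the log2 ratio was -2.52. Dcn did not differ beyond counting error (-0.03, -0.10 to 0.03). Lum was at 1430 and 1013 CPM (-0.50, -0.66 to -0.34) and Bgn at 3255 and 5199 CPM (0.68, 0.58 to 0.78). Without the 5 highest cells of each library, Bgn was at 1.47, Dcn at 0.42 and Lum at -0.16 (-0.41 to 0.11). These 5 cells are a much larger part of 15 UT than of 63 BUP-treated cells, and held 71.8% and 18.8% of the Bgn UMIs, which by construction raises the ratio. The summed macrophage markers were at 44.6 CPM in UT and 412 in BUP-treated fibroblast-like cells, and their part in these ratios was not tested.

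Immune cells held the family at a low level. Over all immune classes, Dcn was at 4.54 CPM in UT (3.98 to 5.15) and 5.58 CPM in BUP-treated cells (4.84 to 6.39), Ogn at 2.18 and 2.37 CPM, Bgn at 1.22 and 0.997 CPM and Aspn at 0.998 and 1.80 CPM. Fmod had no UMI in 9849 immune cells. CD8 T-like cells, which should lack these genes, had Dcn at 5.48 and 5.25 CPM, close to the level of all immune cells. The Ogn per Dcn ratio in immune cells was 0.481 (0.382 to 0.603) and 0.425 (0.327 to 0.548). In the Apod-Agt state this ratio was 0.449 and 0.545, in all tumor states 0.336 and 0.395, and in fibroblast-like cells 0.0155 and 0.00338. Bgn per Dcn did not match the tumor states, at 0.270 (0.202 to 0.356) and 0.179 (0.122 to 0.255) in immune cells. It was 0.0404 and 0.0653 in all tumor states and 0.409 and 0.668 in fibroblast-like cells. The source of these immune-cell UMIs was not tested. Single cells stood out. In the BUP-treated C1q macrophage-like class, 68 of 81 Dcn UMIs were in 1 cell with no Y-linked UMI, and without it the level there went from 13.6 to 2.20 CPM. The ratios above include this cell, which held 68 of the 207 Dcn and 4 of the 88 Ogn UMIs of all BUP-treated immune cells. Of the 22 Dcn UMIs of BUP-treated cycling CD8 T-like cells, 9 and 7 were in a pair of cells.

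At full depth, shares of cells with at least 1 UMI did not always follow the levels. In Apod-Agt cells Ogn was found in 87.6% of UT and 82.1% of BUP-treated cells, Dcn in 85.1% and 82.5%, Aspn in 69.2% and 59.9% and Omd in 61.9% and 44.9%. In BUP-treated Gbp2-Vcam1 cells, whose level of Ogn was lower, it was found in 85.5%, at a median depth of 17974 UMIs. After thinning to 2000 UMIs, Ogn was found in 43.4% of these cells, below the 49.9% of BUP-treated Apod-Agt cells. In CD8 T-like cells, taken as background, Ogn was found in 0.974% and 1.45%, Dcn in 3.90% and 3.32% and Aspn in 0.325% and 0.415%. Median depth was 6107 and 5742 UMIs in the CD8 T-like cells and 13400 and 13191 UMIs in the Apod-Agt cells. With every cell thinned to 2000 UMIs, Ogn was found in 58.6% and 49.9% of Apod-Agt cells and Dcn in 68.4% and 59.4%, against 1.02% and 1.55% for Dcn in CD8 T-like cells. Ogn and Aspn tended to occur in the same cells. Aspn was found in 72.1% of UT Apod-Agt cells with Ogn and in 48.7% of those without, and in 65.9% and 32.4% in the BUP-treated library. After thinning these shares were 50% and 28.3% in UT and 40.2% and 22.1% in BUP-treated cells. Dcn and Lum occurred together in 100% of UT and 92.1% of BUP-treated fibroblast-like cells, but in 2.86% and 1.33% of Apod-Agt cells.

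In the 6 lists of other family genes and of genes that make, bind or cut these proteoglycans, 50 of 79 genes had at least 20 UMIs in the Apod-Agt state, and 1 of these 50 was past 2-fold between the libraries, beside 2.96% of all genes there. Of 22 enzymes that build chondroitin and dermatan sulfate chains, 16 had at least 20 UMIs and none was past 2-fold (median log2 ratio -0.09), and neither were 2 tested keratan sulfate enzymes of 6. Chpf, a chondroitin polymerizing factor and the most abundant of the chain enzymes, was at 74.0 CPM in UT and 73.2 in BUP-treated cells (log2 ratio -0.02, -0.20 to 0.17). The 8 tested of 11 collagen partners (-0.14), the 7 tested of 13 proteases (-0.20) and the 14 tested of 18 receptors and growth factors (0.11) had none past 2-fold. The most abundant of them were Col1a2, a chain of the type I collagen that decorin binds, at 766 and 676 CPM (-0.18, -0.24 to -0.12), Mmp14, a membrane-bound matrix protease, at 192 and 173 CPM, and Itgb1, an integrin chain, at 319 and 304 CPM. Of 9 other family genes 3 were tested, and Ecm2, which lies beside Aspn, was the 1 past 2-fold, lower in BUP-treated cells on 22 UMIs. In the Nppb-Esm1 state 3 of 47 tested genes of the lists (6.38%) were past 2-fold, beside 2.74% of all genes there. They were 3 of 7 tested proteases, with Mmp3 (34 and 97 UMIs) and Mmp9 (6 and 19) higher and Mmp13 (17 and 3) lower in the BUP-treated library, and of these Mmp3 alone had at least 100 UMIs. In fibroblast-like cells, Col1a1 was at 12267 and 5748 CPM and Col1a2 at 7941 and 3940 CPM, both past 2-fold. They were among 10 of 54 tested genes of the lists (18.5%), a share near the 18.3% of all genes there. The collagen partners summed to 1206 CPM in the Apod-Agt state, 614 CPM in the Nppb-Esm1 state and 30776 CPM in fibroblast-like cells, an order like that of Dcn.

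The genes whose levels ran most like each member were read from Pearson correlations of log2(CPM + 1) over 52 sums, 1 for each cell class and library with enough cells, among 13341 genes. These sums share libraries and reflect the contrast between tumor, fibroblast-like and immune cells, so the values are descriptions. Ogn was most like C1s2, a complement protease gene (r = 0.931), and Dmpk (0.928), and Aspn was most like Crocc2 (0.936). Dcn was closest to Mxra7 (0.957) and Bgn to Spon2 (0.939), with the collagen genes Col6a1 and Col1a2 among the 5 nearest for Dcn and Col6a2 and Col1a1 for Bgn. Among the members, Ogn ran with Omd (0.937), Aspn (0.934) and Prelp (0.931) and much less with Lum (0.373). Over the 14 tumor sums alone, Ogn ran with Aspn at 0.959 and with Prelp at 0.965.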

How the data were processed

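The deposited values are UMI counts for each gene in each cell barcode, which the authors made from 10x 5′ v2 libraries with Cell Ranger (8.0.1 per the submitters' processing notes) on GRCm39 and did not normalize. Barcodes passed with over 100 UMIs, less than 20% of them mitochondrial. Both libraries were clustered together in Seurat 5.3.0, without integration, at a resolution of 0.5 on 20 principal components of 2000 variable, log-normalized genes. The 17 genes of the family were left out of the variable genes, and classes were named after the clusters had been seen. Doublets were kept. UMIs were summed per class and library and divided by the class total (CPM, counts per 1000000). Levels carry exact Poisson, shares exact binomial and ratios exact conditional 95% intervals, which cover counting error only. Ratios needed 20 UMIs over both libraries. With 1 library per condition no test was made. The ratio calculation was run on class sums simulated as Poisson counts, the model that the intervals assume. That run cannot show how the intervals hold where UMIs are concentrated in few cells. The members and gene lists were chosen with earlier results of these data known. Named genes were the members, the 2 most abundant of each related list and those past 2-fold (up to 4 per list), and the 5 genes most alike. Alternatives changed the cell filter, clustering, scaling, depth and thresholds.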

Additional observations from a re-analysis of the deposited data

Results flagged for a closer look

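Each value here is a log2 ratio of the BUP-treated over the UT library, given because the interval of the same gene lay above 0 in a cell class and below 0 in another. The differences between classes were not tested. Ogn was at 0.90 in Ube2c-Cenpf tumor cells and at -2.23 in fibroblast-like cells. Aspn was at 1.20 in Mecom-Magi1 tumor cells, where 5 cells held 57.1% and 55.4% of its UMIs, and at -3.35 in fibroblast-like cells. Omd was at 0.51 in Mcm tumor cells and at -0.81 in Apod-Agt tumor cells. Bgn was at 1.61 in Mecom-Magi1 cells, on 7 and 19 UMIs, and at -0.58 in Ube2c-Cenpf cells. Prelp was at 1.11 in Ube2c-Cenpf cells and at -2.73 in fibroblast-like cells. Dcn was at 2.95 in cycling CD8 T-like cells, on 2 and 22 UMIs, and at -0.99 in Cxcl3-Thbs1 macrophage-like cells. Among barcodes that the filter on depth and mitochondrial share removed, Aspn stood at 18.4 CPM in the BUP-treated library, on 12 UMIs in 445 barcodes, and at 1.69 CPM in the UT library, on 1 UMI in 393 barcodes.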

How the results depend on the processing

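No paired analysis was possible because each condition has 1 library, and no replicate could be left out. Each setting was changed alone, and log2 ratios of the BUP-treated over the UT library are given in place of a test. In the Apod-Agt state, Ogn (-0.46) was at -0.31 at a resolution of 1.0, -0.39 with median-ratio scaling, -0.34 in cells thinned to 2000 UMIs, and -0.38 and -0.33 without the 1 and the 5 cells with most of its UMIs in each library. Aspn (-0.77) was at -0.68 at a resolution of 1.0, -0.65 thinned and -0.61 without 5 cells, and Dcn (-0.74) at -0.57 at a resolution of 1.0, -0.67 with median-ratio scaling and -0.65 without 5 cells. Lum was at -2.50 with 30 principal components. Bgn (0.31) was at -0.01 (-0.0083) thinned and 0.74 without 5 cells. Omd and Prelp in this state, and Ogn and Prelp in fibroblast-like cells, stayed within their main intervals in every setting that gave a value except the mean of log-normalized values, which is on another scale and gave -0.225, -0.137, -0.368 and -0.668, with the same sign. Leaving out the same number of cells takes a larger part of the smaller UT classes.

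In fibroblast-like cells, Aspn (-3.35) was at -2.52 without 1 cell, Dcn (-0.03) at 0.19 thinned and 0.42 without 5 cells, and Lum (-0.50) at -0.16 without 5 cells. Bgn (0.68) was at 0.88 with the 6% of highest doublet scores removed, 0.87 thinned, 0.90 without 1 cell and 1.47 without 5 cells. Over all tumor states, weighting as in UT changed the sign of Ogn (0.31 to -0.29), Aspn (0.16 to -0.48), Dcn (0.07 to -0.29) and Prelp (0.20 to -0.18). Thinning gave 0.093 for Ogn and, with a changed sign, -0.13 for Aspn, -0.28 for Dcn and -0.12 for Prelp. Median-ratio scaling gave 0.38 for Ogn, 0.23 for Aspn and 0.14 for Dcn, the mean of log-normalized values -0.01 (-0.0079) for Dcn and -0.01 (-0.012) for Prelp, and leaving out cells 0.36 (1 cell) and 0.40 (5 cells) for Ogn and 0.29 and 0.11 (5 cells) for Aspn and Dcn. The cause of these shifts was not tested, beyond the weighting itself.

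Other signs that changed were those of Dcn in the Nppb-Esm1 state (-0.021, mean of log-normalized values), the Gbp2-Vcam1 state (0.028, 30 principal components) and the Ube2c-Cenpf state (-0.020 by that mean and -0.21 thinned), of Ogn and Omd in the thinned Gbp2-Vcam1 state (0.17 and 0.018), of Bgn in Ube2c-Cenpf cells (0.019) and Aspn in Lcn2-Saa3 cells (0.33) without 5 cells, and, over all immune cells, of Aspn (-0.59, thinned) and Dcn (-0.61 with doublet scores removed, -0.01 (-0.0096) by that mean, -0.20 without 1 cell and -0.44 without 5 cells). At 1.5-fold in place of 2-fold, 4 members in place of 1 were past the threshold in the Apod-Agt state. In the Apod-Agt, Nppb-Esm1 and fibroblast-like cells, 4, 7 and 22 genes of the 6 related lists were past it, in place of 1, 3 and 10. Among all genes, 8.83%, 8.57% and 40.2% were past 1.5-fold in these classes. The share of tested list genes was near that in Apod-Agt (4 of 50) and fibroblast-like cells (40.7% of 54). It was higher in Nppb-Esm1 cells (14.9% of 47). With at least 100 UMIs per gene, 0, 1 and 5 list genes were past 2-fold in these classes. These were 0%, 2.70% and 15.2% of the tested list genes, beside 0.280%, 0.430% and 9.56% of all genes. In fibroblast-like cells only 3 members had that many UMIs, and none of them was past 2-fold. Ogn, Aspn and Prelp, which were past 2-fold there in the main setting, had under 100 UMIs and dropped out. Leaving out cells and the UT weighting were chosen after the data had been seen. The stricter cell filter left every ratio within its main interval.

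Counting error is small for Dcn, Ogn and Aspn in tumor cells, but 15 UT fibroblast-like cells and under 30 Lum UMIs per library in every tumor state but Apod-Agt limit those values, and no interval covers differences between tumors.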

Other observations

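Among the 9 other family genes, Podnl1 (podocan-like 1) was led by lymphocytes and not by stromal or tumor cells. It stood at 51.2 CPM in UT (42.1 to 61.6) and 39.1 CPM in BUP-treated CD8 T-like cells (32.4 to 46.8), at 34.9 and 35.2 CPM in NK-like cells and at 78.2 and 48.2 CPM in regulatory and gamma-delta T-like cells, on 17 to 123 UMIs in a library. Tumor states had 5.87 and 4.92 CPM, fibroblast-like cells 3.43 and 2.84 CPM, and Cxcl3-Thbs1 macrophage-like cells 0.383 and 0.138 CPM. Podn (podocan), its nearest relative by name, stood at 34.3 and 35.6 CPM in fibroblast-like cells and at 0.119 and 0.0656 CPM in tumor states. Podnl1 was picked out after its values were seen.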
